A study of Mus musculus with 24 samples.

Results

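Gene expression was compared between uteri of progesterone receptor knockout (PRKO) mice and of wild-type mice, both treated with progesterone (P4) for 4 h. The arrays were chosen by genotype, treatment and time as labelled, which gave 6 of the 24 arrays of the study, 3 per genotype, and all 12422 probe sets other than controls were examined on them. Mice of both genotypes had been ovariectomized at 6 weeks of age, which removes the main source of ovarian hormones, and 2 weeks later received 1 mg of P4 per mouse in sesame oil. Uteri were collected 4 h after this injection. The remaining groups received sesame oil alone, or 4 injections of either kind given 12 h apart, with collection 4 h after the fourth (the 40 h groups), and each was again represented by 3 arrays. Each RNA pool came from 5 mice. Whether a group's 3 arrays received the same or different pools is not stated in the labels, so errors and p-values describe the spread between arrays, which may be technical. The labels name no mouse strain, and the deletion is present in all tissues of the animal, not in the uterus alone.

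The progesterone receptor is a nuclear receptor that binds DNA as a dimer once it holds its hormone and then raises or lowers transcription of nearby genes. In the uterus it acts in epithelium, stroma and smooth muscle. It prepares the tissue for embryo implantation, in part through signals such as Indian hedgehog that pass from epithelium to stroma, and it opposes the growth of the epithelium that estrogen drives. A comparison of genotypes among P4-treated animals addresses which transcripts differ between genotypes 4 h after the hormone, including those that also differ without it. The same comparison among vehicle-treated animals addresses which transcripts differ between genotypes in the absence of injected hormone. Whether a genotype difference depends on P4 is addressed only by setting the P4 difference against the vehicle difference.

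Signals are given on the linear scale after each array was brought to a common trimmed mean. Differences are PRKO minus wild type in log2 of signal plus 32, so that a negative value is a lower level in the knockout, and are given ± standard error (SE) from 3 arrays against 3. Adjusted p-values are from limma with Benjamini-Hochberg adjustment over all 12422 probe sets, and a probe set is called higher or lower at an adjusted p under 0.05. Because the offset of 32 compresses differences of dim probe sets, a fold difference is that of the offset signals.

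The median deposited signal was between 323.2 and 342.6 on all 24 arrays. The Gapdh control probe sets compare the 3' end of the transcript with its 5' end, a sign of RNA integrity, and their ratio was 1.45, 3.25 and 1.25 on the wild-type P4 arrays and 1.37, 1.86 and 1.26 on the PRKO P4 arrays. Wild-type array 2 was therefore the highest of these 6 by Gapdh. The count of passing probe sets under P4 was 90 without this array and 184 with the Gapdh ratio as a covariate, against 152. The same ratio for actin was 1.17, 1.30 and 1.55 on the wild-type P4 arrays and 1.76, 1.16 and 1.55 on the PRKO P4 arrays. Gapdh and actin thus did not rank the arrays alike. Among the measured markers of uterine tissue, all 14 of stroma, 19 of epithelium and 11 of smooth muscle, none was listed at 0 on these 6 arrays. Only 35 values were 0 over all probe sets and all 24 arrays, so this does not show that a marker was detected.

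Pgr, the targeted gene, was represented by 1 probe set. Its signal was 103, 139 and 119.8 on the wild-type and 114, 119.6 and 112 on the PRKO arrays under P4, and the genotypes overlapped. The difference was -0.04 ± 0.08, adjusted p = 0.969. In vehicle uteri at 4 h the signal was 145 ± 4.50 in wild type and 126 ± 4.48 in PRKO (SD, n = 3), a difference of -0.16 ± 0.08, adjusted p = 1. At 40 h of P4 the probe set was lower in PRKO (-0.34 ± 0.08, adjusted p = 0.0307). The sources used here do not place its probes relative to the deleted sequence, and this probe set therefore does not check the labels. Of the 60 annotated genes nearest to Pgr on its chromosome, 30 on each side, 24 were measured. None of them passed at 4 h of P4 (limma, adjusted p under 0.05), and their median difference was 0.06.

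Under P4 at 4 h, 152 of 12422 probe sets differed between genotypes, which is 1.22% of those tested. Of these, 100 were lower in PRKO (0.805%) and 52 were higher (0.419%). The passing probe sets named 138 genes, and 8 of them named no single gene. At an unadjusted p under 0.05 there were 970 probe sets, where 621.1 would be reached if no gene differed. The same count was 624 for the genotypes under vehicle at 4 h and 434 for the dependence of the genotype difference on P4. On 151 of the 152, all 3 PRKO arrays lay on one side of all 3 wild-type arrays, against 5.28% (PRKO higher) and 5.06% (PRKO lower) of all probe sets. The 152 were called on these same arrays, so this separation follows largely from the call and is not further support for it. The median size of a passing difference was 0.62. The count was 96 without PRKO array 1, 84 without wild-type array 1 and 90 without wild-type array 2. Leaving out the others gave 117 (PRKO array 2), 110 (PRKO array 3) and 164 (wild-type array 3).

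The genes lower in the knockout were led by Cyp26a1, the cytochrome P450 that breaks down retinoic acid. Its signal under P4 was 1212, 1171 and 725 in wild type and 111, 106 and 109 in PRKO. Wild-type array 3 was the lowest of its group and still far above every PRKO array. The difference was -2.89 ± 0.16, adjusted p = 2.90e-10, a fold difference of 7.41. In vehicle uteri the signal was 98.0, 103 and 89.4 in wild type and 162, 117 and 109 in PRKO, so that all PRKO arrays and the vehicle wild-type arrays lay at one low level. The genotype difference thus depended on P4 (P4 minus vehicle -3.20 ± 0.22, adjusted p = 3.36e-08). At 40 h of P4 the difference was -0.00 ± 0.16, and the change from 4 h to 40 h also passed (4 h minus 40 h -2.89 ± 0.22, adjusted p = 9.53e-08).

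Sgk1, the serum and glucocorticoid-regulated kinase that controls ion transport, had nearly equal wild-type signals of 1931, 1884 and 1878 under P4. The PRKO arrays read 690, 835 and 748, all below the wild type, a difference of -1.29 ± 0.18, adjusted p = 0.000288. In vehicle uteri the means were 898 ± 246 in wild type and 858 ± 250.3 in PRKO (SD, n = 3) and the arrays overlapped. The dependence of this difference on P4 did not pass (adjusted p = 0.0633), while its dependence on time did (-1.35 ± 0.26, adjusted p = 0.0156). The metallothioneins Mt1 and Mt2, small proteins that bind zinc and copper, were both lower in PRKO under P4, with differences of -1.11 ± 0.23, adjusted p = 0.0124 for Mt1 and -1.04 ± 0.18, adjusted p = 0.00194 for Mt2. Mt1 did not pass without PRKO array 1 or 3 or wild-type array 1 or 2, with an adjusted p from 0.0022 to 0.113 over the 6 fits that leave out 1 array. In vehicle uteri at 4 h all PRKO arrays also lay below all wild-type arrays for Mt1 (-0.83 ± 0.23, adjusted p = 0.2815). Dependence on P4 did not pass for either gene, at -0.28 ± 0.32 for Mt1 and -0.01 ± 0.25 for Mt2.

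The sequences just before the transcription start are shown for the passing genes whose 250-base windows held the palindrome or the direct repeat described here. They are taken from RefSeq (GRCm38.p6), where 78 of the 89 genes lower in PRKO and 37 of the 49 genes higher in PRKO had a window. Short motifs were searched on both strands. The palindrome, a loose form of the element shared by progesterone and glucocorticoid receptors, is GNACA and TGTNC with any 3 bases between them. Its half-site is TGTTCT, and the direct repeat, of the kind that retinoic acid receptors bind, is TGAACT followed by any 5 bases and TGAACT again. Capitals mark the direct repeat in Cyp26a1 (chr19:37697558-37697807, plus strand), the palindrome in Mt1 (chr8:94178839-94179088, plus strand), and in Sgk1 (chr10:21993640-21993889, plus strand) the palindrome together with the half-sites that overlap it and 1 half-site upstream.
Cyp26a1: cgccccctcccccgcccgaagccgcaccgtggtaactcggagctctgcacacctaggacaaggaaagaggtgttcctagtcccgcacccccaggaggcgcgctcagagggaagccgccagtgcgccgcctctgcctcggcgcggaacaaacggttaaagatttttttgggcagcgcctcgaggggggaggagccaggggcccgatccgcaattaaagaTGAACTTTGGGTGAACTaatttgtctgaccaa
Sgk1: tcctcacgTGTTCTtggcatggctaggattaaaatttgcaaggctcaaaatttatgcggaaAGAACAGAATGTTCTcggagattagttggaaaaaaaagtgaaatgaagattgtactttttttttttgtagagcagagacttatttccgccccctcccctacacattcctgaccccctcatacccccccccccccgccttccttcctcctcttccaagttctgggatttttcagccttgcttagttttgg
Mt1: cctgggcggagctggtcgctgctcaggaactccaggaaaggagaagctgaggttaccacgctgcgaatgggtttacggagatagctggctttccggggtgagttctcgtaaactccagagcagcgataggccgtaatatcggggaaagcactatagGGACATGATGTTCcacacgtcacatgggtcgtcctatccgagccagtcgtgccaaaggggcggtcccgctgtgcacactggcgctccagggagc
Sgk1 has 6 windows, at different starts, and the one shown alone holds the palindrome, at -188 to -176 from its start. The palindrome lies at -94 to -82 in Mt1, and the direct repeat at -32 to -16 in Cyp26a1. The palindrome was found in 2 of 108 windows of the genes lower in PRKO (1.85%) and in 0 of 44 windows of those higher. It was found in 0.387% of all 32851 windows in the table and in 0.321% of the windows of genes on the array. The 108 windows belong to 78 genes, and 6 of them to Sgk1, so windows are not independent of each other. The half-site was found in 17.6% of the windows of the lower genes and 6.82% of those of the higher genes, against 16.1% of all windows and 12.1% of the windows of genes on the array. The direct repeat was found in 1 window of the genes on the array, that of Cyp26a1. These matches describe the letters in a short window and are not evidence of binding.

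**Figure D1:**
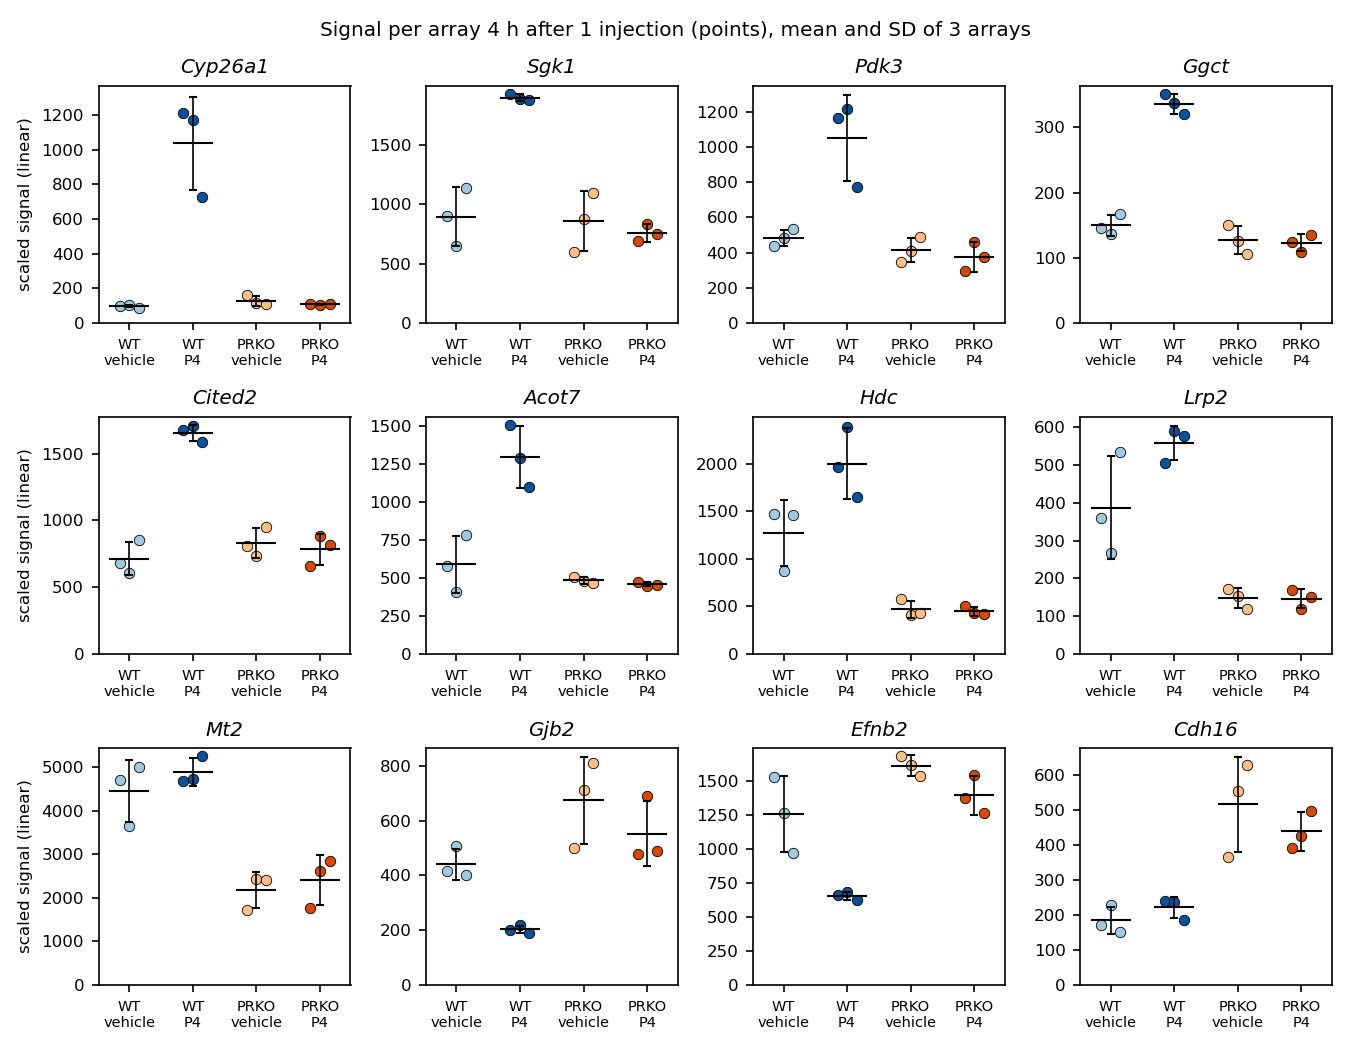
Scaled signal on the linear scale for 12 genes on the 12 arrays collected at 4 h, with points for arrays and bars for the mean and SD of 3 arrays per group. Cyp26a1, Sgk1, Pdk3, Ggct, Cited2 and Acot7 stand high on wild-type P4 arrays alone, Hdc, Lrp2 and Mt2 are lower in PRKO with vehicle as well, and Gjb2, Efnb2 and Cdh16 are higher in PRKO under P4.

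Besides Cyp26a1, 10 probe sets that were lower in PRKO had a genotype difference that depended on P4 at 4 h. Together with Sult1d1, where the dependence ran the other way, they make 12 of 12422 (0.0966%; 11 below 0 and 1 above, or 0.0886% and 0.00805%). The count was 42 without wild-type P4 array 3. It was 4 without PRKO P4 array 1, wild-type P4 array 1 or 2, wild-type vehicle array 2 or PRKO vehicle array 3, and 5 without PRKO P4 array 3 or PRKO vehicle array 2. Leaving out 1 of the remaining arrays gave 9 to 18. Cyp26a1, Ggct, Pip5k1b and Sult1d1 passed in all 12 of these fits. With the 4 h arrays alone Cyp26a1 passed and Sult1d1, Ggct and Pip5k1b did not (adjusted p = 0.0517, 0.0684 and 0.189). In the 12 fits Pdk3, Cited2, Caprin2, Atp6v1b2, Bmp2k, Tiparp and Adh5 did not pass in 5 to 10, and none of these 7 passed with the 4 h arrays alone.

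Ggct is gamma-glutamylcyclotransferase, an enzyme of the glutathione cycle. Its signal was 350.4, 337 and 320.5 in wild type and 124, 109 and 135 in PRKO under P4, a difference of -1.25 ± 0.09, adjusted p = 3.44e-08. The vehicle arrays read 149.6 ± 16.2 and 127 ± 21.9 (SD, n = 3), near the PRKO P4 level, and the dependence on P4 was -1.05 ± 0.13 (adjusted p = 0.000344). Ggct was the only passing gene of 23 in glutathione synthesis and transfer (against 0.982% lower of all genes). There the transferase Gstm2 read -1.02 and did not pass. Pdk3, a kinase that inhibits pyruvate dehydrogenase, read 1167, 1217 and 771 in wild type and 293, 462 and 373 in PRKO. Its difference was -1.40 ± 0.15, adjusted p = 1.76e-05, and its dependence on P4 was -1.19 ± 0.21 (adjusted p = 0.0274, up to 0.129 with 1 array left out). Cited2, a coregulator that binds the coactivators CBP and p300, read 1676, 1707 and 1589 in wild type and 657, 882 and 819 in PRKO. The wild-type P4 arrays were above all other arrays at 4 h, and the difference was -1.06 ± 0.15, adjusted p = 0.000292 with a dependence on P4 of -1.27 ± 0.21 (adjusted p = 0.0151, up to 0.0863 with 1 array left out).

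The other genes of this kind have varied roles. Pip5k1b, which makes the membrane lipid phosphatidylinositol bisphosphate, was 378 ± 77.8 in wild type and 189.5 ± 19.4 in PRKO (SD, n = 3), a difference of -0.88 ± 0.11, adjusted p = 5.60e-05. Caprin2, an RNA-binding protein, differed by -1.01 ± 0.12 and the kinase Bmp2k by -0.97 ± 0.14. Tiparp, an enzyme that attaches ADP-ribose to proteins, differed by -0.84 ± 0.12, and Atp6v1b2, a subunit of the proton pump of acidic vesicles, by -0.49 ± 0.07. Both probe sets of Adh5, the alcohol dehydrogenase that clears formaldehyde, were lower, with differences of -0.64 ± 0.09 and -0.69 ± 0.09. On each of these probe sets all 3 PRKO arrays lay below all 3 wild-type arrays under P4, and the adjusted p of the genotype difference was at most 0.000454. A second probe set of Pip5k1b, with a mean signal of 290.0 that exceeds the passing probe set, differed by -0.11 and did not pass. Pip5k1b is therefore uncertain at the level of the gene.

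Sult1d1, a sulfotransferase for small phenols and hormones, showed the reverse. Under P4 its signal was 183, 237 and 251 in wild type and 181, 227 and 236 in PRKO, and the genotypes overlapped (-0.05 ± 0.13, adjusted p = 0.979). Under vehicle it was 507, 443 and 454 in wild type and 148, 128 and 184 in PRKO, a difference of -1.44 ± 0.13, adjusted p = 4.39e-06. The wild-type vehicle arrays were thus above all other arrays at 4 h. The dependence on P4 was 1.39 ± 0.18 (adjusted p = 0.00093), and at 40 h of P4 the gene was lower in PRKO (-0.95 ± 0.13, adjusted p = 0.000208).

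**Figure D2:**
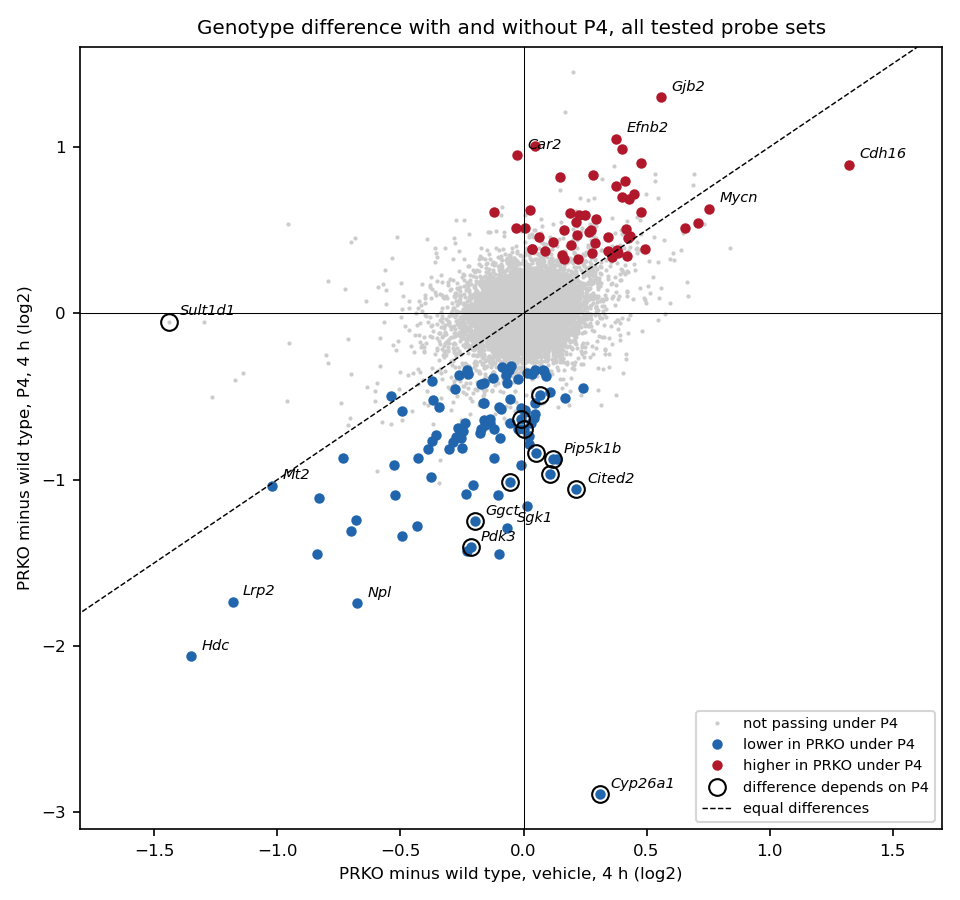
PRKO minus wild type in log2 at 4 h under vehicle (horizontal axis) and under P4 (vertical axis) for 12422 probe sets, with those passing under P4 coloured and the 12 whose difference depended on P4 ringed. Cyp26a1 lies at -2.89 under P4 and 0.31 under vehicle, Hdc and Lrp2 are below 0 on both axes, Sult1d1 lies apart on the left, and the 52 probe sets higher in PRKO lie mostly to the right of 0.

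A second set of genes was lower in PRKO with and without injected P4. Hdc, the enzyme that makes histamine, had signals of 1961, 2390 and 1646 in wild type and 505, 429.7 and 416 in PRKO under P4. The genotypes did not overlap and differed by -2.06 ± 0.23, adjusted p = 1.89e-05. Under vehicle Hdc read 1476, 877 and 1464 in wild type and 574, 412 and 427 in PRKO, again without overlap, and differed by -1.35 ± 0.23, adjusted p = 0.0126. Lrp2, or megalin, a receptor that takes up lipoproteins and vitamin carriers, read 506, 589.7 and 576 in wild type and 168, 119 and 151 in PRKO under P4 (-1.73 ± 0.20, adjusted p = 3.93e-05). Its difference under vehicle was -1.18 ± 0.20, adjusted p = 0.0142, with no overlap there either. Mt2 read 4684, 4732 and 5265 in wild type and 1773, 2618 and 2856 in PRKO under P4, and its vehicle difference was -1.02 ± 0.18, adjusted p = 0.0145. Hdc, Lrp2 and Mt2 also passed in the same direction at 40 h under P4 and under vehicle, where Mt2 had an adjusted p of 0.048. The vehicle calls depended on the arrays fitted. At 4 h the 4 probe sets called lower under vehicle became 1 without PRKO array 2 or without wild-type array 3. At 40 h the 6 called lower became 1 without PRKO array 3. Hdc, Lrp2 and Mt2 therefore cannot all have passed in those fits.

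The largest remaining differences below 0 were spread over metabolism, transport and signalling. Npl, which cleaves sialic acid, read 631, 656 and 429.5 in wild type and 147, 148 and 142 in PRKO (-1.74 ± 0.25, adjusted p = 0.000322). Its PRKO arrays agreed closely and all lay below the wild type. Acot7, an acyl-CoA thioesterase, read 1506, 1294 and 1097 in wild type and 474, 449.6 and 451 in PRKO (-1.43 ± 0.17, adjusted p = 4.04e-05). The secreted phospholipase Pla2g10 differed by -1.45 ± 0.21 and Myd88, the adaptor of Toll-like receptors, by -1.28 ± 0.17. The tight junction protein Cldn3 was lower on both of its probe sets (-1.24 ± 0.20 and -1.09 ± 0.19). The transcription factor Nfil3 differed by -1.45 ± 0.29, adjusted p = 0.00954. Nfil3 did not pass without PRKO array 1 or wild-type array 1, with an adjusted p from 0.00471 to 0.0927 over the 6 fits that leave out 1 array. Under vehicle at 4 h none of these genes passed. There Npl differed by -0.68, Pla2g10 by -0.84, Myd88 by -0.43 and Cldn3 by -0.68 and -0.52, each without overlap. Acot7 and Nfil3 differed by -0.23 and -0.10 under vehicle, with overlap. Dependence on P4 did not pass for any gene of this paragraph.

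Several of these genes have a second probe set that did not pass. It read -0.07 for Nfil3, at a mean signal of 972 that exceeds the passing probe set. For Atp1b1, the beta subunit of the sodium pump, the passing probe set differed by -1.34 ± 0.16 and the second by -0.01 at a mean signal of 156. For Pfkfb3 the second probe set had a mean signal of 37.8 and differed by -0.24. Nfil3 and Atp1b1 are therefore uncertain at the level of the gene.

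Progesterone targets known from the uterus were mainly lower in the knockout. Of 36 genes on this list, 31 were measured, 10 were lower in PRKO and 0 were higher, against 0.982% lower and 0.521% higher of the 8251 genes at their brightest probe set. The median difference of the list was -0.49, against 0.01 over all genes. The list holds genes described as P4-responsive in mouse uterus and was chosen with earlier results of these data known, so it is not independent evidence of direction. Besides Cyp26a1, Hdc, Lrp2, Sgk1 and Cited2, the passing members were Il13ra2, Fst, Gata2, Sox17 and Ihh. Il13ra2, a decoy receptor for interleukin 13, was dim at 188, 251 and 112 in wild type and 63.0, 49.8 and 86.4 in PRKO, a difference of -1.09 ± 0.17, adjusted p = 0.000656.

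Ihh, Indian hedgehog, the epithelial signal to the stroma, read 1272, 1397 and 1196 in wild type and 738, 770.5 and 911 in PRKO. All wild-type arrays exceeded all PRKO arrays, and the difference was -0.66 ± 0.11, adjusted p = 0.00154. In vehicle uteri the Ihh difference was -0.05 ± 0.11. Of the 9 measured hedgehog pathway genes Ihh alone passed (against 0.982% lower of all genes). Its receptor and target Ptch1 read 0.43, and the transducers Smo and Gli1 read 0.05 and 0.04, none of them passing.

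Gata2, a zinc finger transcription factor of the endometrium, read 3054, 2555 and 2679 in wild type and 1759, 1439 and 1713 in PRKO, a difference of -0.75 ± 0.11, adjusted p = 0.000391 without overlap. Sox17, a transcription factor of epithelium and endothelium, read 3540, 4280 and 2834 and 1844, 2813 and 1778, and the margin between the groups was narrow. It differed by -0.73 ± 0.18, adjusted p = 0.0413. Sox17 did not pass without PRKO array 1 or 3 or wild-type array 1 or 2, with an adjusted p from 0.00599 to 0.305 over the 6 fits that leave out 1 array. The second probe sets of Gata2 and Sox17 read -0.67 and -0.68 and did not pass. Fst, follistatin, which binds and blocks activins, read 289, 299 and 105 in wild type and 101, 110.4 and 92.9 in PRKO. Wild-type array 3 lay within the PRKO range, and Fst was the only passing probe set whose genotypes overlapped. The difference was -0.87 ± 0.20, adjusted p = 0.0333. Fst did not pass without PRKO array 1, 2 or 3 or wild-type array 1 or 2, with an adjusted p from 3.04e-07 to 0.281 over the 6 fits that leave out 1 array. Of the 24 measured homeobox and endometrial transcription factors, Gata2 and Sox17 alone passed (against 0.982% lower of all genes). Fst alone passed in the activin, inhibin and follistatin list, against the same share, and the other 13 measured genes of that list did not.

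The progesterone targets that did not pass ranged from -0.88 to 0.30. Zbtb16, a zinc finger factor, read -0.88, the immunophilin Fkbp5 -0.66 and the EGF receptor inhibitor Errfi1 -0.65. The homeobox genes Hoxa11 and Msx1 both read -0.49. Hand2, a stromal factor, read -0.24, while Hoxa10, Wnt4, Bmp2, Nr2f2 and Lifr lay between 0.01 and 0.17.

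Of 24 measured genes that glucocorticoids and progestins both regulate, Sgk1, Mt1 and Mt2 were lower (against 0.982% of all genes), 0 were higher (against 0.521%), and the median was -0.10. Per1, Dusp1, Tsc22d3 and Klf9, which glucocorticoids raise in many tissues, read -0.14, -0.06, 0.05 and 0.30 and did not pass. Zbtb16, Fkbp5 and Errfi1, also in this list, read -0.88, -0.66 and -0.65 without passing. On 7 of the 24 genes all PRKO arrays lay below all wild-type arrays, and on 0 above (against 426 and 483 of 8251). The steroid receptors themselves did not pass, and Esr1 and Nr3c1, the estrogen and glucocorticoid receptors, both read 0.32.

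In glucose use, Pdk3, Pfkfb3 and Slc2a3 were lower among 19 measured genes and none was higher, against 0.982% lower and 0.521% higher of all genes. Pfkfb3, which makes the fructose bisphosphate that drives glycolysis, read 822, 693 and 641 in wild type and 256, 248 and 308 in PRKO (-1.31 ± 0.16, adjusted p = 4.25e-05). Slc2a3, a glucose transporter, read 750.3, 814 and 628 and 393, 387 and 421 (-0.81 ± 0.12, adjusted p = 0.0004), and its second probe set read -0.26 without passing. In both genes the genotypes did not overlap. Under vehicle at 4 h Pfkfb3 and Slc2a3 differed by -0.70 ± 0.16 and -0.30 ± 0.12, again without overlap but without passing. The glycolytic enzymes lay between -0.15 for Pgk1 and 0.12 for Pfkm without passing, and the list median was 0.02.

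In retinoid handling, Cyp26a1 was lower and Crabp2, a carrier that delivers retinoic acid to its receptors, was higher (0.60 ± 0.14, adjusted p = 0.0295) among 19 measured genes. The shares over all genes were 0.982% lower and 0.521% higher. Crabp2 was dim, at 38.9, 39.8 and 36.4 in wild type and 58.9, 106 and 65.4 in PRKO. Crabp2 did not pass without PRKO array 2 or wild-type array 1, 2 or 3, with an adjusted p from 0.0187 to 0.166 over the 6 fits that leave out 1 array. The enzymes that make retinoic acid, Aldh1a1, Aldh1a2 and Aldh1a3, read -0.24, 0.22 and 0.30 and did not pass.

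Klk1, a tissue kallikrein, was lower (-0.74 ± 0.16, adjusted p = 0.0213), and 10 of the 11 measured kallikreins were below 0 (against 44.8% of all genes) with a median of -0.22. Klk1 and the Klk1b genes among them are near-identical copies, and the probes cannot assign their signal to 1 of them with certainty. They are therefore not independent members of this count. Klk6 and Klk8 are not such copies and read -0.03 and 0.14. A second probe set of Klk1, dim at a mean signal of 19.65, differed by -0.69 and passed. Klk1 did not pass without PRKO array 1 or 2 or wild-type array 2, with an adjusted p from 0.0112 to 0.18 over the 6 fits that leave out 1 array. Wnt11, a secreted Wnt ligand, was lower (-0.54 ± 0.11, adjusted p = 0.00902). It was the only passing gene of 30 in Wnt and BMP signalling, against 0.982% lower of all genes. Wnt11 did not pass without PRKO array 3 or wild-type array 2, with an adjusted p from 0.0131 to 0.0876 over the 6 fits that leave out 1 array. Wnt5a in the same list read 0.74 and did not pass. Hspb8, a small heat shock protein, was lower (-0.52 ± 0.11, adjusted p = 0.0106), the only passing member of 15 heat shock genes (against 0.982% lower of all genes). Hspb8 did not pass without PRKO array 1 or wild-type array 1 or 2, with an adjusted p from 0.00206 to 0.108 over the 6 fits that leave out 1 array.

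Among the 52 probe sets higher in the knockout, Gjb2, the gap junction protein connexin 26, had the largest difference. It read 200.4, 218 and 191 in wild type and 479, 689 and 489 in PRKO under P4. No arrays overlapped, and the difference was 1.30 ± 0.17, adjusted p = 0.000122, a fold difference of 2.46. In vehicle uteri Gjb2 read 441 ± 56.5 in wild type and 674 ± 158 in PRKO (SD, n = 3), so the wild-type P4 arrays were the lowest group at 4 h. The other 10 connexins measured lay between -0.07 and 0.17 and did not pass, where 0.521% of all genes were higher.

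The same arrangement, with wild-type P4 arrays below the other 3 groups, was seen for Efnb2, Hmga2 and Car2. Efnb2, the ligand ephrin-B2, read 663, 683 and 626 in wild type and 1376, 1550 and 1269 in PRKO (1.05 ± 0.12, adjusted p = 4.04e-05). Hmga2, a chromatin protein of growing cells, read 221, 226 and 248 and 520.3, 499.6 and 473 (1.01 ± 0.19, adjusted p = 0.00454). Car2, a carbonic anhydrase, read 675, 651 and 705 and 1124, 1782 and 1190 (0.95 ± 0.14, adjusted p = 0.000455). Vehicle means of Car2 were 1366 ± 181 in wild type and 1341 ± 187 in PRKO (SD, n = 3). None of the 52 had a dependence on P4 that passed, and that of Car2 had an adjusted p of 0.0593.

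Gjb2 and Car2 were the passing members of 22 measured estrogen-regulated uterine genes, of which 0 were lower, against 0.521% higher and 0.982% lower of all genes. The list median was 0.21, against 0.01 over all genes. Sprr2f, a keratinocyte envelope protein, and the cyclin Ccnd1 read 0.79 and 0.71 without passing, while the secretory genes Ltf and Clca1 read -0.54 and -0.51 and also did not pass.

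Cdh16 and Mycn were higher in the knockout in every one of the 4 genotype comparisons. Cdh16, a cadherin of kidney and other epithelia, read 241, 238 and 186 in wild type and 392, 427 and 499 in PRKO under P4 (0.89 ± 0.15, adjusted p = 0.00136), and differed by 1.32 ± 0.15, adjusted p = 8.28e-05 under vehicle. Mycn, a growth-promoting transcription factor, read 185, 228 and 178 and 306, 355 and 303 (0.63 ± 0.12, adjusted p = 0.00886), and differed by 0.75 ± 0.12 under vehicle. For both genes all PRKO arrays lay above all wild-type arrays in each of the 4 comparisons. Under P4 at 4 h Mycn did not pass without PRKO array 2 or wild-type array 1. Its adjusted p there ran from 0.00735 to 0.0622 over the 6 fits that leave out 1 array. The vehicle calls depended on the arrays fitted. At 40 h Cdh16 and Mycn were the 2 probe sets called higher under vehicle (adjusted p = 0.0364 and 0.0435). No probe set was called higher there without PRKO array 1, 2 or 3 or wild-type array 2. Under vehicle at 4 h none was called higher with the arrays of that comparison alone.

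Other genes higher in PRKO were Emb, a cell adhesion protein (0.62 ± 0.12), and St6galnac5, a sialyltransferase (0.61 ± 0.11), which passed whichever array was left out. With the 6 arrays alone neither passed (adjusted p = 0.0525 for Emb and 0.0986 for St6galnac5), and with the 4 h arrays alone St6galnac5 did not (adjusted p = 0.101). Both probe sets of Blnk, the B cell linker, passed (0.71 and 0.69). Blnk did not pass without PRKO array 2, with an adjusted p from 0.00786 to 0.0757 over the 6 fits that leave out 1 array. Cxcr4, a chemokine receptor, read 78.5, 50.4 and 80.9 in wild type and 209, 110 and 202 in PRKO (0.99 ± 0.23, adjusted p = 0.0349). Cxcr4 did not pass without PRKO array 1 or 3 or wild-type array 1 or 2, with an adjusted p from 0.00778 to 0.238 over the 6 fits that leave out 1 array. Dsp, the desmosome protein desmoplakin, was higher by 0.90 ± 0.19. Dsp did not pass without PRKO array 1 or 2 or wild-type array 1 or 2, with an adjusted p from 0.0277 to 0.0938 over the 6 fits that leave out 1 array. Car8, a relative of carbonic anhydrase, was higher by 0.80 ± 0.20. Car8 did not pass without any 1 of the 6 arrays, with an adjusted p from 0.056 to 0.226 over the 6 fits that leave out 1 array. Arg2, an arginase, was higher by 0.61 ± 0.15. Arg2 did not pass without PRKO array 1 or 2 or wild-type array 1, 2 or 3, with an adjusted p from 0.0103 to 0.312 over the 6 fits that leave out 1 array. Second probe sets of Dsp, Emb and Arg2 differed by -0.15, 0.01 and -0.03 and did not pass, and that of Arg2 had a mean signal of 218.5, so Arg2 is uncertain as well.

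**Figure D3:**
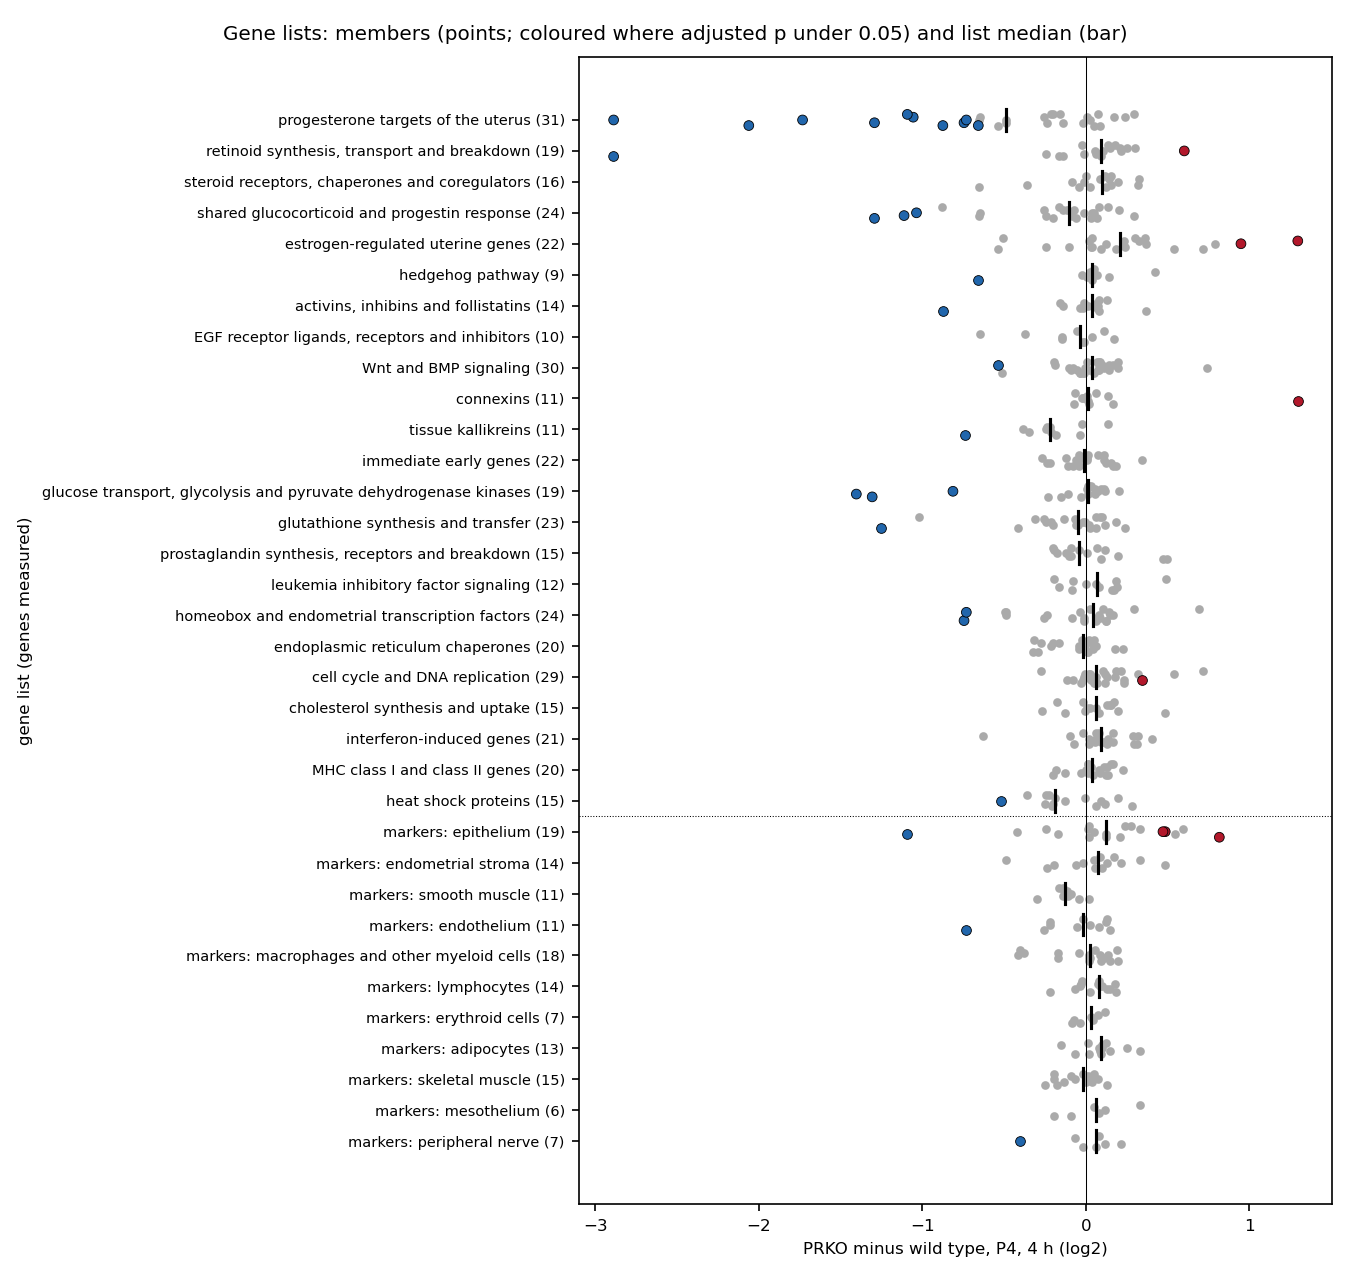
PRKO minus wild type in log2 under P4 at 4 h for the measured members of 23 pathway lists and 11 marker lists, with points for genes at their brightest probe set and a bar for the list median. Progesterone targets hold the most passing genes, 10 of 31, while most other lists centre near 0.

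The median difference of the cell cycle genes was 0.06 under P4. Of 29 measured, Mcm3, a subunit of the replication helicase, was higher (0.35 ± 0.08, adjusted p = 0.0391) and 0 were lower. The shares over all genes were 0.521% higher and 0.982% lower. Mcm3 did not pass without PRKO array 1 or 2 or wild-type array 1 or 2, with an adjusted p from 0.034 to 0.242 over the 6 fits that leave out 1 array. Mki67 and Ccnd1 read 0.54 and 0.71 without passing. Under vehicle, 3 of the 29 were higher in PRKO, namely Mcm3, Mki67 and Top2a, against 0.218% of all genes. Lists with no passing member under P4 were those of steroid receptors, EGF receptor signalling, immediate early genes, prostaglandins, leukemia inhibitory factor signalling, endoplasmic reticulum chaperones, cholesterol synthesis, interferon-induced genes and MHC genes.

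Markers of cell types were compared because a whole uterus was extracted, and in such samples fewer cells of a type and less RNA per cell cannot be told apart. Of 19 epithelial markers, Tspan8, Krt18 and Elf3 were higher in PRKO (against 0.521% of all genes) and Cldn3 was lower (against 0.982%). Tspan8, a membrane organiser of epithelial cells, differed by 0.82 ± 0.17, the keratin Krt18 by 0.49 ± 0.11 and the epithelial transcription factor Elf3 by 0.47 ± 0.08. Tspan8 did not pass without PRKO array 1 or wild-type array 2, with an adjusted p from 0.016 to 0.0769 over the 6 fits that leave out 1 array. Krt18 did not pass without any 1 of the 6 arrays, with an adjusted p from 0.0547 to 0.177 over the 6 fits that leave out 1 array. The summed signal of the epithelial markers ran from 11613 to 14005 on wild-type and from 11782 to 15006 on PRKO arrays under P4, which overlap. This sum includes Cldn3, whose mean was 3371 in wild type and 1572 in PRKO. Of the 19 markers, 15 were above 0 (against 4552 of 8251 over all genes), with a median of 0.12. On 8 of them all PRKO arrays lay above all wild-type arrays, and on 1 below (against 483 and 426 of 8251). Under vehicle at 4 h, 17 of the 19 were above 0, against 4672 of 8251. No marker of stroma, smooth muscle, myeloid cells, lymphocytes, erythroid cells, adipocytes, skeletal muscle or mesothelium passed. For smooth muscle the sums did not overlap, running from 45086 to 46658 on wild-type and from 41415 to 43067 on PRKO arrays, and 10 of 11 markers were below 0 (against 44.8% of all genes) with a median of -0.12. Sox17 was the passing member of 11 endothelial markers (against 0.982% lower of all genes). Their sums overlapped, from 10293 to 12378 on wild-type and from 8700 to 11440 on PRKO arrays.

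Of 7 peripheral nerve markers, Pmp22 was lower (-0.40 ± 0.09, adjusted p = 0.0302), against 0.982% lower of all genes. The sums of the nerve markers ran from 4728 to 5004 on wild-type and from 4553 to 4679 on PRKO arrays, without overlap. Pmp22 did not pass without PRKO array 1 or wild-type array 1 or 2, with an adjusted p from 0.0352 to 0.24 over the 6 fits that leave out 1 array. Adipocyte sums ran from 20311 to 27236 on wild-type and from 25410 to 27810 on PRKO arrays. The part of these marker levels in the differences above was not tested.

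In vehicle uteri at 4 h, on arrays that the P4 comparison does not use, 23 probe sets differed between genotypes (0.185%), 19 higher in PRKO (0.153%) and 4 lower (0.0322%). Of the 52 probe sets higher in PRKO under P4, 49 were above 0 under vehicle (94.2%, against 56.3% of all probe sets), with a median of 0.29, and 10 also passed there, which is 19.2% of the 52 and 52.6% of the 19. Of the 100 lower under P4, 73 were below 0 under vehicle (against 43.7% of all), with a median of -0.13, and 3 passed, of 4 passing in all. The vehicle difference was under 25% of the P4 difference for 59 of the 100 lower and for 11 of the 52 higher probe sets. It was at least 50% of it for 18 and 27. These shares are a description, since the probe sets were taken by their difference under P4. The vehicle count was 14 without PRKO vehicle array 1, 14 without wild-type vehicle array 2 (7 higher and 7 lower), 13 without PRKO array 3, and 3 without PRKO array 2 or wild-type array 3.

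At 40 h of P4, again on other arrays, 322 probe sets differed (2.59%), 139 higher in PRKO (1.12%) and 183 lower (1.47%). Which direction held more of them depended on the scaling and the arrays fitted, with 178 higher and 140 lower without scaling, 167 and 143 after quantile normalization, 297 and 249 with the 6 arrays alone and 78 and 68 without PRKO array 1. Of the 52 higher at 4 h, 47 were above 0 at 40 h (90.4%, against 38.8% of all) and 20 passed. Of the 100 lower at 4 h, 73 were below 0 (against 61.2% of all) and 25 passed. Npl, Acot7, Myd88 and Slc2a3 were lower at 40 h too, with differences of -2.24 ± 0.25, -1.97 ± 0.17, -1.14 ± 0.17 and -1.06 ± 0.12, as was Ihh (-0.58 ± 0.11). Gjb2, Efnb2, Cxcr4 and Tspan8 were higher at 40 h, by 1.07 ± 0.17, 1.07 ± 0.12, 1.28 ± 0.23 and 0.92 ± 0.17. The 40 h count was 146 without PRKO array 1, 90 without PRKO array 2, 143 without wild-type array 1 and 105 without wild-type array 2. Adipocyte markers moved with genotype at 40 h, where 5 of 13 were higher in PRKO (against 1.35% of all genes) and their median was 0.74, and their part in the 40 h values was not tested.

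The genotype difference under P4 itself changed between 4 h and 40 h for 37 probe sets (0.298%), of which 24 were below 0 (0.193%) and 13 above (0.105%). Without scaling there were 41 below 0 and 11 above. Without wild-type 4 h array 3 the count was 75. Among the genes described, Cyp26a1, Pdk3, Sgk1, Ggct, Pip5k1b, Atp6v1b2 and Bmp2k were lower in PRKO at 4 h with a difference at 40 h between -0.16 and 0.07. In vehicle uteri at 40 h, 8 probe sets differed (0.0644%), 6 lower (0.0483%) and 2 higher (0.0161%), and the count was 2, 3 and 1 without PRKO array 1, 2 and 3, and 4 and 2 without wild-type array 1 and 2. In the fit of all 24 arrays, the 5 genes that passed in the same direction in all 4 genotype comparisons were Hdc, Lrp2 and Mt2 (lower) and Cdh16 and Mycn (higher). Their vehicle calls were not all kept when 1 array was left out.

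**Figure D4:**
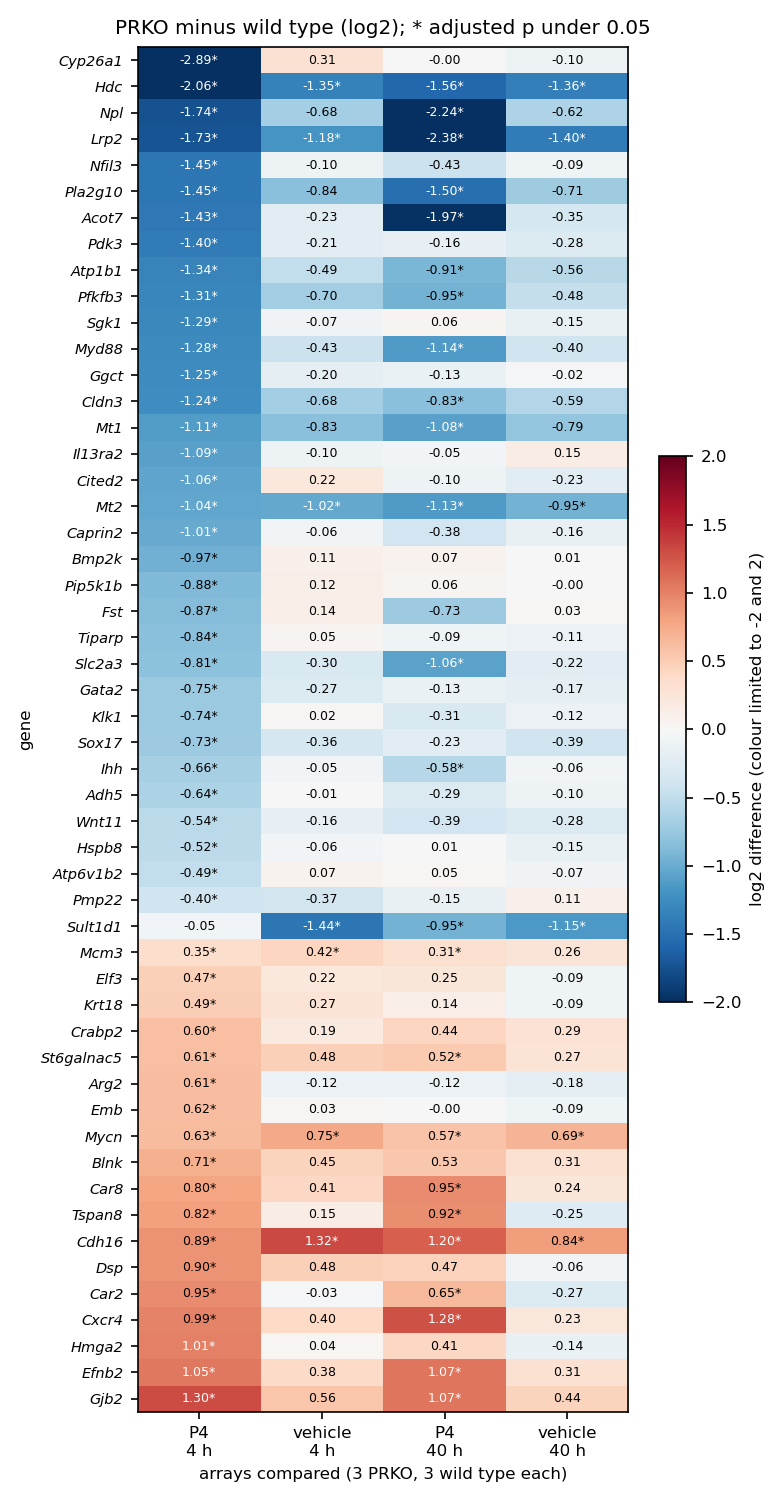
PRKO minus wild type in log2 for the described genes (rows, at 1 probe set per gene) in the 4 genotype comparisons (columns), with an asterisk where the adjusted p was under 0.05. Hdc, Lrp2 and Mt2 are blue in all 4 columns, Cyp26a1, Sgk1, Pdk3 and Ggct carry an asterisk in the P4 4 h column alone, and Cdh16 and Mycn are red in all 4.

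Within the wild-type P4 group the arrays were not equally far from the knockout. Of the 100 probe sets lower in PRKO, wild-type array 3 was the lowest wild-type array for 83, array 1 for 13 and array 2 for 4. Cyp26a1, Npl, Pdk3 and Fst show this in the signals above, and Sgk1, Lrp2 and Ggct show little of it. Of the 54 passing probe sets chosen for naming, 35 passed in each fit that left out 1 of the 6 arrays, and all 54 kept their sign in those fits. With the 4 h arrays alone 20 of the 54 did not pass, and with the 6 arrays alone 20 did not pass. Of the 35, Hmga2, Cdh16, St6galnac5 and Elf3 did not pass with the 4 h arrays alone, and Emb, St6galnac5, Elf3, Atp6v1b2, Il13ra2 and the probe set of Cldn3 with the larger difference did not with the 6 arrays alone.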

How the data were processed

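Signal intensity, 1 linear value per probe set and array, was deposited by the authors for 24 arrays. MAS5, Affymetrix software that condenses a probe set to 1 value, is named in the submitters' processing notes. The sources used here give no version or settings for it. Of 12488 probe sets, 66 controls were left out. Scaling set the 2%-trimmed mean of every array at 500, with factors between 0.954 and 1.03. The deposited values so scaled, plus 32, were taken to log2. Platform annotation named 1 gene for 10833 probe sets, several for 396 and none for 1193. It can be old.

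Group means of all 24 arrays were fitted with limma 3.58.1 (R 4.3.3), with an intensity trend in the prior variance and two-sided moderated tests, leaving 16 residual degrees of freedom. The fit was also run on simulated data with independent noise of the same spread on all 24 arrays. That run cannot show what unequal spread between groups or arrays does to the counts. P-values were adjusted by Benjamini-Hochberg over 12422 probe sets in each of 6 comparisons. The number of arrays limits the precision. Gene lists used the brightest probe set of each gene.

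Genes were named by a rule. It takes Pgr, the 15 highest and 15 lowest passing differences whose genotypes did not overlap (1 probe set per gene), up to 4 passing members per list, passing neighbours of Pgr, and up to 5 genes in each direction passing in all 4 genotype comparisons. 1 gene that it takes is not reported here. Cited2, Pip5k1b, Sult1d1, Caprin2, Atp6v1b2, Bmp2k, Tiparp, Adh5 and Il13ra2 were added after their values were seen, as were list members named without passing and the comparison of which wild-type array lay nearest the knockout. The comparison, lists and rule were chosen with earlier results of these data known. Alternatives changed the offset, scaling, filter, arrays in the fit, weights, replicate block and a Gapdh ratio covariate, and left out arrays.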

Additional observations from a re-analysis of the deposited data

Results flagged for a closer look

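The genotype difference under P4 differed from that under vehicle at 4 h, by the interaction term of the limma fit, for Cyp26a1 (-3.20 on the log2 scale), Cited2 (-1.27), Pdk3 (-1.19), Bmp2k (-1.07), Ggct (-1.05), Pip5k1b (-0.99), Caprin2 (-0.96), Tiparp (-0.89), both probe sets of Adh5 (-0.63 and -0.70), Atp6v1b2 (-0.55) and Sult1d1 (1.39). In the first 11 of these the difference was more negative with P4 than without, and in Sult1d1 it was -1.44 under vehicle and -0.05 under P4. When the 4 h arrays alone were fitted, 1 of the 12 passed, Cyp26a1 (adjusted p = 9.5e-05), and the next lowest values were 0.0517 for Sult1d1 and 0.0684 for Ggct.

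The genotype difference under P4 at 4 h differed from that at 40 h for Cyp26a1 (-2.89), Sgk1 (-1.35), Pdk3 (-1.25), Ggct (-1.12), Bmp2k (-1.03), Pip5k1b (-0.94), Atp6v1b2 (-0.53) and Sult1d1 (0.90). Each value is the 4 h difference minus the 40 h difference, so the first 7 genes were further below wild type at 4 h, and Sult1d1 was further below it at 40 h.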

How the results depend on the processing

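The counts rest on pooling the spread of all 24 arrays. Groups at 4 h had median SDs between 0.111 and 0.147 and groups at 40 h between 0.0767 and 0.0974, so pooling may understate the 4 h spread. For PRKO against wild type under P4 at 4 h, the 152 passing probe sets became 69 (67 shared) with the 4 h arrays alone, 65 (57 shared) with the 6 arrays alone, 325 with array weights and 84 to 164 with 1 array left out. Under vehicle at 4 h, 23 became 5 and 1 with fewer arrays, 10 with weights, 14 (7 higher, 7 lower) without both arrays of high Gapdh ratio, and 3 to 24 with 1 array left out. The dependence on P4 (12) became 1 with the 4 h arrays alone or its own groups, 22 with weights, 21 with the Gapdh covariate, 4 without both high-ratio arrays, and 4 to 42 with 1 array left out. At 40 h of P4, 322 became 1147 and 546 with fewer arrays, 4248 with weights, 935 with the covariate, 637 without both high-ratio arrays, and 90 to 292 with 1 left out. The change between times (37) became 24, 1037 and 61 with its own groups, weights and the covariate, and 25 to 75 with 1 left out. Under vehicle at 40 h, 8 became 13 and 2 with fewer arrays, 38 with weights, and 1 to 9 with 1 left out. Offset, dim filter and prior trend moved no count of the P4 comparison at 4 h by over 1.5 times, and all 54 passing differences chosen for naming kept their sign under every alternative, except that the dim filter left Crabp2 and Il13ra2 out of the fit. The cause of these shifts was not tested beyond the number of arrays fitted.

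The main fit did not pair arrays by replicate number. Same-numbered arrays at 4 h correlated at -0.188, 0.315 and 0.416 under P4 in their deviations from group means. Under vehicle at 4 h they correlated at 0.599, 0.455 and 0.0365. Differently numbered arrays ran from -0.516 to 0.273 under P4 and from -0.554 to 0.216 under vehicle. At 40 h same-numbered arrays lay between -0.071 and 0.249. Whether equal numbers mark arrays handled together was not tested. With the replicate block the counts were 255 at 4 h of P4 (96 higher, 159 lower, 151 of the 152 shared), 27 for the dependence on P4, 858 at 40 h of P4, 88 for the change between times and 13 under vehicle at 40 h.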
